A study of Arabidopsis thaliana with 8 samples.

Results

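The RFL (RESTORER OF FERTILITY-LIKE) genes described here are 30 Arabidopsis thaliana genes of the pentatricopeptide repeat (PPR) family, taken by gene ID from a fixed list of the clade, of 37361 genes in the count tables. All 30 IDs were found, 29 had enough reads to be tested, and AT1G63320, with 1 count over all libraries, was not. The 8 RNA-seq libraries were made from total RNA of seedlings in the Columbia-0 (Col-0) background, 12 days old and grown at 23 °C with 16 h of light by the protocol in the labels. They held 4 genotypes with 2 biological replicates each, namely the wild type (WT), the single mutant fry1-6, and double mutants in which fry1-6 was joined to rdr6-11 (fry1-6 rdr6-11) or to rdr1-1 (fry1-6 rdr1-1). All 3 mutant genotypes carry fry1-6, so no library shows rdr6-11 or rdr1-1 without it. fry1-6 and rdr1-1 are T-DNA insertion lines, each gene was studied through 1 allele, and nothing in the labels says how many plants were pooled. Labels and titles disagree for the fry1-6 rdr1-1 libraries, whose genotype field repeats that of fry1-6 rdr6-11. The titles were followed.

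PPR proteins are RNA-binding proteins built from a repeated helical motif, and most are imported into mitochondria or chloroplasts, where they take part in RNA cleavage, stability, editing and translation. The RFL clade is related to the fertility restorer genes of crop species, which act against mitochondrial RNAs that cause male sterility, and several Arabidopsis members are RNA processing factors (RPF) that set the 5′ ends of mitochondrial mRNAs. The clade is also a known target of small RNAs. miR161 and miR400 pair with its mRNAs, and so do trans-acting siRNAs (ta-siRNAs) from the noncoding TAS2 transcript. TAS2 RNA is cut under guidance of miR173, copied into double-stranded RNA by RDR6 and diced by DCL4 in steps of 21 nt. FRY1 is a phosphatase that removes 3′-phosphoadenosine 5′-phosphate, an inhibitor of the 5′-3′ exoribonucleases, and RDR1 is another RNA-dependent RNA polymerase.

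The small RNAs that bear on the clade are given first, because the members are grouped by them further on. They were read from the TAIR10.1 genome at their annotated or phased positions, are printed 5′ to 3′, and carry bases 2 to 8, the seed, in capitals. miR161.1 and miR161.2 come from overlapping positions of the same hairpin. The ta-siRNAs are numbered by their 21-nt step 3′ of the miR173 cut in TAS2, and (-) is the strand opposite to the TAS2 transcript.
miR161.1 (chr1:17825731-17825751, +): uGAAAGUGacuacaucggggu
miR161.2 (chr1:17825722-17825742, +): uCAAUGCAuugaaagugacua
miR400 (chr1:11785947-11785967, +): uAUGAGAGuauuauaagucac
TAS2 3'D6(-) (chr2:16539877-16539897, +): aUAUCCCAuuucuaccaucug
TAS2 3'D9(-) (chr2:16539814-16539834, +): uCUACCAUccgaucaacaaga
TAS2 3'D12(-) (chr2:16539751-16539771, +): uCAAGAUCcaucuuacucuuu
No seed was shared among these 6 small RNAs.

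Sites were scored by pairing alone, with 1 point for a mismatch, 0.5 for a G:U pair, and both doubled at positions 2 to 13 of the small RNA. A site was listed at a score of 4 or less. No small RNA was measured in these files, so a site is a description of the letters and not evidence of cleavage. By this rule 28 of the 30 members held a site for miR161, miR400 or a TAS2 siRNA, and 80 of 37051 annotated genes (0.216%) did. Sites for miR161 were found in 20 members, against 25 genes in all (0.0675%). Sites for miR400 were found in 17 members, against 24 genes in all (0.0648%), and TAS2 sites in 21 members, against 61 genes in all (0.165%). AT1G63320 and AT4G26800 held none. The most frequent TAS2 siRNA was 3'D6(-), with sites in 11 members, followed by 3'D12(-) in 8, 3'D9(-) in 5 and 3'D11(-) in 1.

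The sites that best show the range of pairing are printed below as DNA of the mRNA strand, with every base that does not form a Watson-Crick pair in capitals. The 3'D6(-) site of AT1G63070, AT1G63080 and AT1G63130 was identical, and RefSeq notes record AT1G63080 and AT1G63130 as cleavage targets of a TAS2-derived ta-siRNA. The 3'D9(-) site of the pseudogene AT1G62860 and the 3'D12(-) site of RPF1 (AT1G12700) are the closest matches of those siRNAs among members that the text describes by value. The miR161.2 sites of AT1G62590 and AT1G62914 show a close and a weaker match, and AT1G06580 holds a miR400 site with no mismatch.
3'D6(-) site of AT1G63080 (chr1:23390231-23390251, -, coding, score 1.0): cagatggtGgaaatgggatat
3'D6(-) site of AT1G62910 (chr1:23299591-23299611, +, coding, score 3.0): caAatggtCgaaatgggatat
3'D9(-) site of AT1G62860 (chr1:23276365-23276385, -, noncoding exon, score 0.0): tcttgttgatcggatggtaga
3'D9(-) site of AT1G63230 (chr1:23451236-23451256, +, coding, score 2.0): tcttgttgatcgTatggtaga
3'D12(-) site of RPF1 (chr1:4324813-4324833, -, coding, score 0.5): aaagagtaagatggatcttgG
3'D12(-) site of AT1G12775 (chr1:4355405-4355425, +, coding, score 2.5): GaagagtaagatggaGcttga
miR161.2 site of AT1G62590 (chr1:23178190-23178210, -, coding, score 1.0): tagtcacGttcaatgcattga
miR161.2 site of AT1G62914 (chr1:23302543-23302563, +, coding, score 3.0): tagtcactttcaGCgcattga
miR161.1 site of RPF3 (chr1:23307498-23307518, +, coding, score 2.5): aTccAAatgtagtcactttca
miR400 site of AT1G06580 (chr1:2014950-2014970, -, coding, score 0.0): gtgacttataatactctcata

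Of the 30 members, 17 lie in a block of 411.492 kb on chromosome 1 (chr1:23176930-23588421, TAIR10.1), 8 lie elsewhere on chromosome 1, 2 on chromosome 3, 1 on chromosome 4 and 2 on chromosome 5. The members are unevenly related. The coding identity of pairs ran from 22.0% to 90.2% with a median of 61.5%, and the closest pair was AT1G62910 and AT1G63130. Of the 150-base windows of AT1G63330, 50.3% occur without change at another place in the genome, on either strand. The same holds for 48.9% of those of AT1G62910, 38.8% of AT1G62590, 32.0% of AT1G63150 and 24.1% of AT1G63400. Counted within transcripts of other members alone, the shares were 50.3%, 48.5%, 34.6%, 32.0% and 22.5%, in the same order. A read confined to such a window cannot be assigned to 1 place, so the split of counts among these members is uncertain. No such window was found in AT1G62860, in AT1G63230 or in any member outside the block. AT1G62590, AT1G63130, AT1G63330, AT1G12775, AT1G64100 and AT3G22470 also overlap another annotated gene, and the strand setting of the counting is not given in the sources used here.

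The libraries held 15069329 to 26285519 counts on genes and 1469 to 5618 counts on the 30 members. Leaf markers were at high but uneven levels in every library (RBCS1A at 136226 to 362902 counts and CAB2 at 19456 to 244736). The flower markers AP3 and PI had at most 1 and 29 counts, the seed markers CRU3 and CRA1 at most 1 and 6. Root markers were low as well, with at most 118 counts for CASP1, 23 for EXP7, 18 for COBL9, 16 for RHD6 and 12 for WOX5. Chloroplast-encoded genes took 0.0342% to 0.173% of counts in the WT and fry1-6 libraries and 2.29% to 2.80% in both double mutants, so a batch that holds the double mutants and the second mutation cannot be told apart. FRY1 (AT5G63980) counts were not lower in the mutants (27.5 and 49.1 CPM in WT, 55.0 to 151 CPM in the 6 mutant libraries). RDR6 (AT3G49500) was at 12.1 and 20.7 CPM in the double mutant with rdr6-11 and at 11.0 to 39.5 CPM in the other libraries, and RDR1 (AT1G14790) at 28.8 and 19.5 CPM in that with rdr1-1 and at 9.38 to 38.9 CPM elsewhere. None of the 3 genes was called in any comparison. A gene-level count also takes reads of a disrupted transcript, so these values do not check the labels. CPM here is the count relative to the TMM-scaled library size.

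The summed level of the clade was above WT in every mutant library, with the larger ratio in the chromosome 1 block. Summed over the members, the level was 105 and 101 CPM in the WT libraries and 213 and 235 CPM in fry1-6, a ratio of means of 2.18. It was 219 and 258 CPM in fry1-6 rdr6-11 and 188 and 213 CPM in fry1-6 rdr1-1. The fry1-6 libraries overlapped those of fry1-6 rdr6-11 in this sum and met the upper fry1-6 rdr1-1 library, while both fry1-6 rdr6-11 libraries were above both fry1-6 rdr1-1 libraries. In seedling RNA, a change in the number of cells of a type and a change in RNA per cell cannot be told apart. The 17 members of the block summed to 56.2 ± 3.32 CPM in WT and 156 ± 10.6 CPM in fry1-6 (SD, n = 2), a ratio of 2.78, and the 13 other members to 46.6 ± 0.160 and 67.9 ± 4.57 CPM, a ratio of 1.46. The other PPR genes, 290 of them by annotation, summed to 3991 ± 332 CPM in WT and 4409 ± 144 CPM in fry1-6. With 2 libraries against 2, the smallest exact two-sided permutation p for such a sum is 0.333, so no test is given for it.

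**Figure D1:**
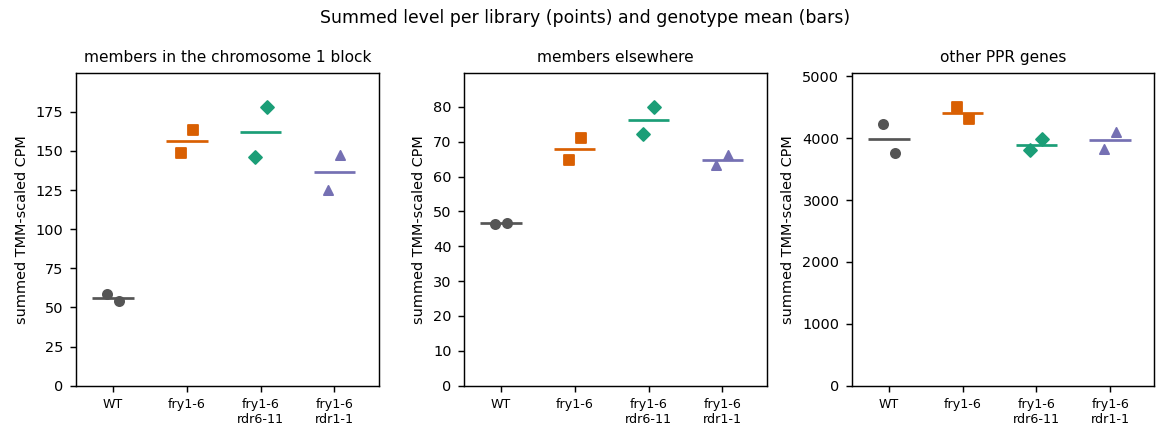
Summed TMM-scaled CPM per library (points) and genotype mean (bars) for the 17 members in the chromosome 1 block, the 13 members elsewhere and 290 other PPR genes, with each vertical axis starting at 0. The block was at 53.9 and 58.6 CPM in WT and between 125 and 178 CPM in the 6 mutant libraries, and the other PPR genes were between 3756 and 4510 CPM in all 8.

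In the comparison of fry1-6 with WT, 9 of the 29 tested members were higher and 0 were lower at an adjusted p under 0.05 (edgeR quasi-likelihood test, Benjamini-Hochberg over 22744 genes). That is 31.0% of the tested members, where 5.03% of all genes tested were called higher and 0.387% lower. The 9 were AT1G62590, RPF2 (AT1G62670), AT1G62860, AT1G62910, RPF3 (AT1G62930), AT1G63070, AT1G63080, AT1G63150 and AT1G63400, all in the block. The log2 fold change of the tested members had a median of 1.02, against -0.03 over all genes and 0.16 over 270 other tested PPR genes, of which 14 were higher and 0 lower. Both fry1-6 libraries were above both WT libraries for 23 of the 29 and below both for 0, where 23.3% and 19.1% of all genes had those orders. Of the 29, AT1G63070, AT1G63330 and AT1G63630 reached the level of the filter in no WT library, so they were tested only because the mutants had reads. With at least 10 counts required in every library, 25 members were tested, 8 were called higher and the median was 0.95. In that fit 521 of 19428 genes were called higher and 36 lower. The calls rest on an estimate of spread shared by all 4 genotypes. Fitted on the 4 libraries of WT and fry1-6 alone, 0 of 29 members and 0 of 21585 genes passed, with 16 members and 2763 genes at an unadjusted p under 0.05. DESeq2 on all libraries called 14 members higher, where 1559 of 29407 genes were called higher and 359 lower. The edgeR fit called fewer members when either fry1-6 library was left out. Its median was then 1.01 without fry1-6 replicate 1 and 0.86 without fry1-6 replicate 2.

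**Figure D2:**
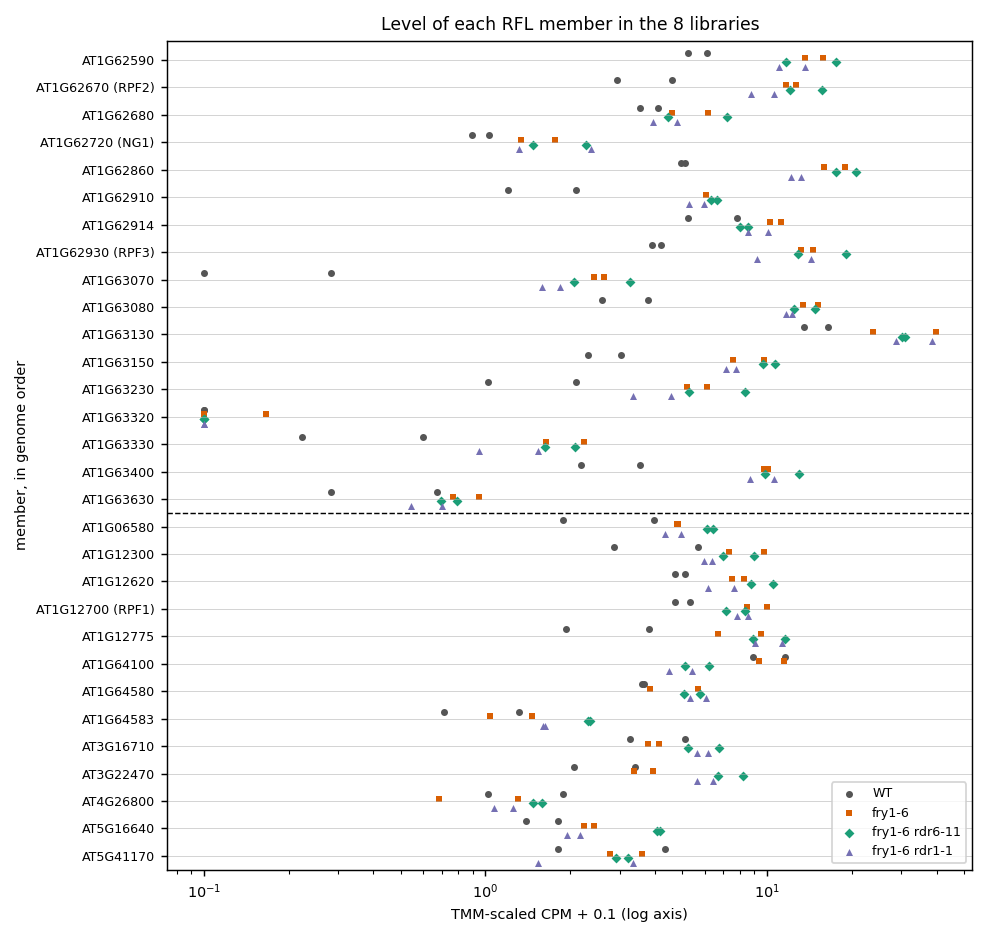
TMM-scaled CPM of each member (rows, genome order, block above the dashed line) in the 8 libraries on a log axis, with 0.1 CPM added so that a level of 0 can be drawn; colour and marker give the genotype. WT points lie to the left of all mutant points for AT1G63080, AT1G62860 and RPF3, and for AT1G64100 the points of both double mutants lie to the left of WT and fry1-6.

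Of the 4 RNA processing factors, RPF2 and RPF3 rose in all 3 mutants, RPF6 was called in 1 of them and RPF1 in none. RPF2, which the annotation gives as required for the 5′ ends of the mitochondrial nad9 and cox3 mRNAs, was at 4.51 and 2.82 CPM in the WT libraries, 11.6 and 12.6 in those of fry1-6, 12.0 and 15.5 in the double mutant with rdr6-11, and 8.71 and 10.5 in that with rdr1-1. Both WT libraries were below all 6 mutant libraries, and the change in fry1-6 was 3.31-fold (log2 1.73 ± 0.28 SE, adjusted p = 0.016). RPF3, which acts on the 5′ processing of several mitochondrial mRNAs, was at 3.79 and 4.11 CPM in the WT libraries, 14.4 and 13.1 in those of fry1-6, 12.8 and 18.9 in the double mutant with rdr6-11, and 9.08 and 14.2 in that with rdr1-1. It was again separate from WT in every mutant library, with a 3.47-fold change in fry1-6 (log2 1.80 ± 0.30 SE, adjusted p = 0.018). Of the 8 fits that left out a library, the call in fry1-6 was kept in 6 for RPF2 and 4 for RPF3, and the call in fry1-6 rdr1-1 in 1 for RPF2 and 0 for RPF3.

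RPF6 (AT1G63130), annotated both as a target and as a source of siRNAs, had the highest level of the clade per kilobase of transcript, with a mean over the 8 libraries of 10.5 CPM per kb. Over all 8 libraries the next were AT1G62590 (5.31), RPF3 (5.25), AT1G62860 (5.21) and AT1G62914 (4.66 CPM per kb), a mean in which 6 libraries are mutant. In WT alone RPF6 (5.64) was followed by AT1G62914 (3.48), AT1G64100 (3.34) and AT1G62590 (2.52 CPM per kb), with AT1G62860 at 1.91 and RPF3 at 1.83. It was at 13.4 and 16.4 CPM in the WT libraries, 23.7 and 39.6 in those of fry1-6, 30.0 and 30.9 in the double mutant with rdr6-11, and 28.6 and 38.5 in that with rdr1-1. The 2 fry1-6 libraries differed from each other by more than their lower value differed from WT, and the call was made for fry1-6 rdr6-11 (2.04-fold, adjusted p = 0.045) and not for fry1-6 (2.13-fold, adjusted p = 0.082) or fry1-6 rdr1-1 (2.25-fold, adjusted p = 0.051). RPF1, which is required for the 5′ end of the nad4 mRNA, lies outside the block and was at 5.22 and 4.60 CPM in the WT libraries, 8.42 and 9.88 in those of fry1-6, 7.05 and 8.27 in the double mutant with rdr6-11, and 8.47 and 7.71 in that with rdr1-1. Its mutant libraries lay above both WT libraries, but the adjusted p values of 0.055, 0.066 and 0.077 did not pass.

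AT1G63080 and AT1G63150 are annotated as loci that give rise to siRNAs themselves. AT1G63080 was at 2.50 and 3.68 CPM in the WT libraries, 13.4 and 15.1 in those of fry1-6, 12.4 and 14.7 in the double mutant with rdr6-11, and 11.6 and 12.2 in that with rdr1-1. Its 4.58-fold rise in fry1-6 (log2 2.19 ± 0.23 SE, adjusted p = 0.0041) kept its call when any single library was left out, as did its calls in both double mutants (4.36-fold and 3.83-fold). AT1G63150 was at 2.93 and 2.21 CPM in the WT libraries, 7.48 and 9.68 in those of fry1-6, 10.5 and 9.61 in the double mutant with rdr6-11, and 7.04 and 7.63 in that with rdr1-1. The fry1-6 libraries were 3.34-fold above WT (log2 1.74 ± 0.24 SE, adjusted p = 0.0097), and 32.0% of the windows of this gene are shared with other transcripts.

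AT1G62860 is annotated as a pseudogene of a PPR gene and holds the 3'D9(-) site with complete pairing. It was at 4.86 and 5.03 CPM in the WT libraries, 18.8 and 15.9 in those of fry1-6, 17.5 and 20.6 in the double mutant with rdr6-11, and 13.2 and 12.1 in that with rdr1-1. The rise was 3.50-fold in fry1-6 (log2 1.81 ± 0.18 SE, adjusted p = 0.0036), the lowest adjusted p of the clade in that comparison, and no 150-base window of it occurs elsewhere. The level in both fry1-6 rdr1-1 libraries was under that of all 4 libraries of the other mutants, with a log2 difference from fry1-6 of -0.46 ± 0.17 SE that did not pass (adjusted p = 0.28).

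The remaining called members of the block are PPR genes for which the annotation gives no mitochondrial target. AT1G63070 had 0 and 3 counts in the WT libraries (0 and 0.184 CPM) and was at 2.34 and 2.53 CPM in those of fry1-6, 1.95 and 3.17 in the double mutant with rdr6-11, and 1.48 and 1.74 in that with rdr1-1. This was the largest fitted change among the members. Because a fitted fold change depends on the prior count at such low values, the ratio of counts is given instead. The depth-scaled ratio of summed counts to WT was 24.6 in fry1-6 (95% interval 8.10 to 122), 25.6 in fry1-6 rdr6-11 (8.56 to 126) and 16.3 in fry1-6 rdr1-1 (5.38 to 81.0). These exact intervals cover counting error only, and the adjusted p values were 0.018, 0.010 and 0.029.

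AT1G62910, also named RFL9, was at 2.00 and 1.10 CPM in the WT libraries, 5.95 and 5.98 in those of fry1-6, 6.25 and 6.53 in the double mutant with rdr6-11, and 5.19 and 5.86 in that with rdr1-1. All mutant libraries were above WT, and the change in fry1-6 was 3.85-fold (log2 1.95 ± 0.31 SE, adjusted p = 0.016). AT1G63400 was at 3.43 and 2.08 CPM in the WT libraries, 9.96 and 9.68 in those of fry1-6, 9.73 and 12.9 in the double mutant with rdr6-11, and 8.61 and 10.5 in that with rdr1-1. Its change in fry1-6 was 3.57-fold (log2 1.84 ± 0.29 SE, adjusted p = 0.016), again with no overlap between WT and the mutants. AT1G62590, which the annotation lists as a PPR protein with adenylate cyclase activity, was at 6.01 and 5.15 CPM in the WT libraries, 15.7 and 13.6 in those of fry1-6, 11.6 and 17.4 in the double mutant with rdr6-11, and 10.9 and 13.5 in that with rdr1-1. It had the smallest rise of the 9 called members (2.62-fold, log2 1.39 ± 0.26 SE, adjusted p = 0.027), and the call was kept in 2 of the 8 fits that left out a library.

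AT1G63230 and AT1G63330 passed against WT in fry1-6 rdr6-11 and not in the other 2 mutants. AT1G63230 was at 2.00 and 0.920 CPM in the WT libraries, 5.08 and 6.04 in those of fry1-6, 5.18 and 8.27 in the double mutant with rdr6-11, and 3.24 and 4.44 in that with rdr1-1, with a 4.63-fold change in fry1-6 rdr6-11 (adjusted p = 0.018) and a 3.83-fold change in fry1-6 that did not pass (adjusted p = 0.056). AT1G63330 had 7 and 2 counts in WT (0.501 and 0.123 CPM) and was at 1.54 and 2.14 CPM in the fry1-6 libraries, 1.53 and 1.98 in the double mutant with rdr6-11, and 1.44 and 0.848 in that with rdr1-1. Its call in fry1-6 rdr6-11 was the less stable, kept in 6 of 8 other settings against 8 of 9 for AT1G63230. Over all alternatives its log2 fold change there ran from 1.79 to 3.76, and 50.3% of its 150-base windows occur elsewhere. No mutant library of either gene was as low as WT, and no difference between the mutants was called for them. AT1G62914, at 3.48 CPM per kb in WT and 4.43 in fry1-6 rdr6-11, was at 7.73 and 5.15 CPM in the WT libraries, 10.2 and 11.1 in those of fry1-6, 7.90 and 8.46 in the double mutant with rdr6-11, and 8.47 and 9.94 in that with rdr1-1. The call was made in no mutant, and its differences from WT were 1.65-fold in fry1-6 (adjusted p = 0.16) and 1.27-fold in fry1-6 rdr6-11 (adjusted p = 0.33). It carries the same 3'D6(-) site as AT1G62910 and the same miR161.2 site as RPF3.

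In fry1-6 rdr6-11 against WT, 16 members were higher and 1 was lower, where 10.9% of all genes were called higher and 7.94% lower. Apart from AT1G63070, given above as a ratio of counts, the fold changes of the 16 ran from 1.99 to 5.69. The median of the tested members was 1.29 on the log2 scale, against 0.04 over all genes and 0.34 over other PPR genes, of which 39 were higher and 8 lower. Both libraries were above both WT libraries for 26 members and below both for 1, where 34.5% and 27.1% of all genes had those orders. The 16 were the 9 members named for fry1-6 together with AT1G12620, AT1G12775, RPF6, AT1G63230, AT1G63330, AT3G22470 and AT5G16640. In fry1-6 rdr1-1 against WT, 10 members were higher and 1 was lower, where 5.90% of all genes were called higher and 2.07% lower. These were the 9 and AT1G12775, with fold changes of 2.19 to 3.83 apart from AT1G63070 and a median of 1.00 on the log2 scale, against 0.05 over all genes and 0.07 over other PPR genes, of which 11 were higher and 0 lower. Both libraries were above both WT libraries for 24 members and below both for 1, where 30.7% and 21.8% of all genes had those orders. The 3 comparisons share the WT libraries, so they are not independent of each other. AT1G63070 and AT1G63330 reached the level of the filter in no WT library, so here too they were tested only because the mutants had reads. With at least 10 counts required in every library, 25 members were tested. The calls were then 15 higher and 0 lower in fry1-6 rdr6-11, where 1689 of 19428 genes were higher and 1541 lower. In fry1-6 rdr1-1 they were 8 higher and 0 lower, where 643 genes were higher and 347 lower. The 17 calls of fry1-6 rdr6-11 became 10 without its replicate 1 and 3 without its replicate 2, and with total-count scaling the split over all genes moved from 2484 higher and 1807 lower to 5813 and 968. The 11 calls of fry1-6 rdr1-1 became fewer whichever library was left out, and its median was 0.76 and 0.94 without its own replicates 1 and 2. In fits on WT and 1 double mutant alone, 8 members were called for fry1-6 rdr6-11, where 1028 of 22193 genes were higher and 800 lower. For fry1-6 rdr1-1, 0 members were called, where 76 of 22010 genes were higher and 3 lower, and 15 members had an unadjusted p under 0.05. DESeq2 on all libraries called 13 members higher and 1 lower in fry1-6 rdr1-1, where 1738 of 29407 genes were higher and 1246 lower.

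**Figure D3:**
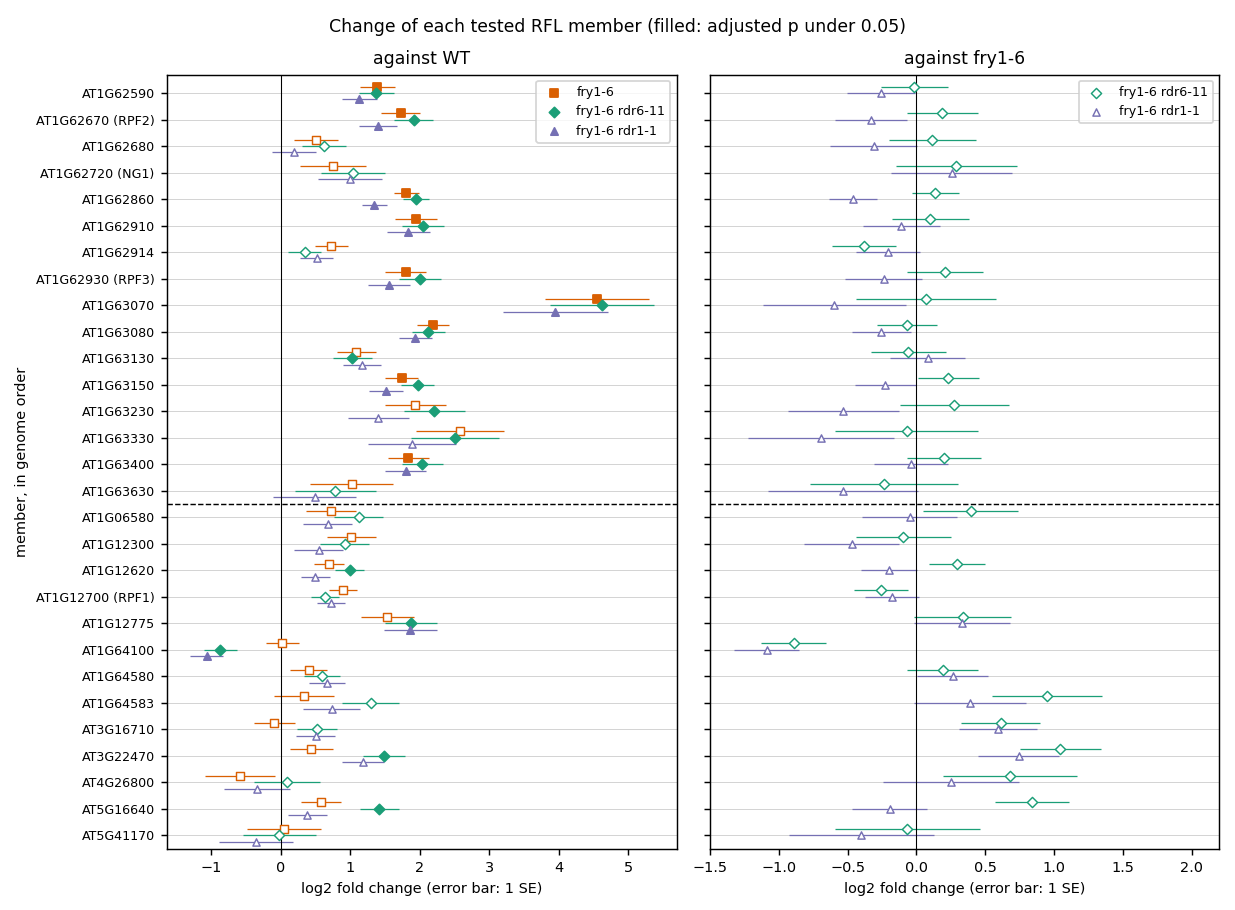
Log2 fold change (edgeR, error bars 1 SE) of the 29 tested members against WT (left) and against fry1-6 (right), in genome order with the block above the dashed line; filled symbols passed an adjusted p of 0.05. Against WT the block members sit right of 0 in all 3 mutants, and against fry1-6 every symbol is open and the log2 fold changes run from -1.09 to 1.04.

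Outside the block, 5 members were called in a double mutant against WT, and none in fry1-6; whether the mutants differ was tested directly only in the comparisons between them, where no member passed. AT1G12775 was at 3.72 and 1.84 CPM in the WT libraries, 6.62 and 9.42 in those of fry1-6, 8.80 and 11.4 in the double mutant with rdr6-11, and 8.94 and 11.2 in that with rdr1-1. It was called in both double mutants (3.66-fold and 3.65-fold, adjusted p = 0.019 and 0.033), and its 2.90-fold change in fry1-6 did not pass (adjusted p = 0.073). AT1G12620, which shares its 3'D12(-) site with AT1G12775 and is most similar to AT1G12300 (89.0% identity), was at 5.01 and 4.60 CPM in the WT libraries, 8.15 and 7.41 in those of fry1-6, 8.67 and 10.4 in the double mutant with rdr6-11, and 7.50 and 6.06 in that with rdr1-1. All its mutant libraries were above WT and the rise in fry1-6 rdr6-11, 1.99-fold, was called (adjusted p = 0.022).

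AT3G22470 and AT5G16640 lie on chromosomes 3 and 5. AT3G22470 was at 3.29 and 1.96 CPM in the WT libraries and 3.27 and 3.83 in those of fry1-6, which overlapped. The double mutant with rdr6-11 was at 6.59 and 8.09 CPM and that with rdr1-1 at 5.56 and 6.34, all above WT and fry1-6. It rose 2.80-fold in fry1-6 rdr6-11 against WT (adjusted p = 0.020), and the log2 difference of 1.04 ± 0.30 SE from fry1-6 missed the threshold (adjusted p = 0.092). AT5G16640 was at 1.72 and 1.29 CPM in the WT libraries, 2.34 and 2.14 in those of fry1-6, 4.08 and 3.95 in the double mutant with rdr6-11, and 1.85 and 2.06 in that with rdr1-1. Its rise of 2.67-fold in fry1-6 rdr6-11 was called (adjusted p = 0.018), the libraries of that double mutant were above all others, and its log2 difference from fry1-6 rdr1-1 of 1.03 ± 0.27 SE did not pass (adjusted p = 0.14).

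AT1G64100 was the member called lower, in both double mutants. It was at 8.80 and 11.5 CPM in the WT libraries, 9.29 and 11.4 in those of fry1-6, 5.01 and 6.11 in the double mutant with rdr6-11, and 5.32 and 4.40 in that with rdr1-1. WT and fry1-6 overlapped, and all 4 double mutant libraries were below them. The level was 0.549 times WT in fry1-6 rdr6-11 (log2 -0.87 ± 0.24 SE, adjusted p = 0.046) and 0.480 times WT in fry1-6 rdr1-1 (log2 -1.06 ± 0.24 SE, adjusted p = 0.044). Of 9 other settings, 4 kept the call in fry1-6 rdr6-11 and 5 that in fry1-6 rdr1-1, and 1 of 8 fits that left out a library kept it in each. AT1G64100 overlaps AT1G64105 on the same strand, and the chloroplast share of the libraries moves with the same split of genotypes. The part of either in the result was not tested.

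The other 11 members gave no call in any comparison. Their genotype means ran from 0 to 4.17 CPM in WT, from 0.0334 to 8.42 CPM in fry1-6, from 0 to 7.88 CPM in fry1-6 rdr6-11 and from 0 to 6.07 CPM in fry1-6 rdr1-1. Of the 10 that were tested, 8 had a log2 fold change above 0 in fry1-6 against WT, from -0.59 to 1.02, with adjusted p values of 0.19 or more. AT4G26800, one of the members with no listed site, had the lowest of these values (-0.59 ± 0.50 SE).

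Between the mutants no member was called. In fry1-6 rdr6-11 against fry1-6, 0 of 29 members passed in either direction, where 1.83% of all genes were higher and 2.93% lower, and 3 members had an unadjusted p under 0.05. The median log2 difference was 0.19, and both libraries were above both of fry1-6 for 8 members and below both for 3, where 31.7% and 29.2% of all genes had those orders. In fry1-6 rdr1-1 against fry1-6, 0 of 29 passed, where 0.207% of all genes were higher and 0.0572% lower, and 3 members had an unadjusted p under 0.05. The median was -0.21, and both libraries were above both of fry1-6 for 3 members and below both for 13, where 25.8% and 24.3% of all genes had those orders. In fry1-6 rdr6-11 against fry1-6 rdr1-1, 0 of 29 passed as well, where 0.101% of all genes were higher and 1.00% lower, with a median of 0.33 and 3 members at an unadjusted p under 0.05. The orders of both above both and both below both were seen for 15 and 1 members, against 30.2% and 28.2% of all genes. DESeq2 called AT3G22470 higher (adjusted p = 0.046) and AT1G64100 lower (adjusted p = 0.037) in fry1-6 rdr6-11 against fry1-6, and AT1G64100 lower (adjusted p = 0.023) in fry1-6 rdr1-1 against fry1-6. The edgeR fits without WT replicate 1 or without WT replicate 2, and that with total-count scaling, also called AT3G22470 higher in fry1-6 rdr6-11 against fry1-6 (adjusted p = 0.046 in each). For the 9 members called in fry1-6, the fitted log2 differences of fry1-6 rdr6-11 from fry1-6 lay between -0.07 and 0.23. Those of fry1-6 rdr1-1 from fry1-6 lay between -0.60 and -0.04, and their log2 changes over WT in fry1-6 were 1.39 or more. These 9 were chosen by high values in the same fry1-6 libraries, which by itself pushes differences from fry1-6 below 0 and raises the change over WT. Over the 16 tested block members, 14 were below 0 in fry1-6 rdr1-1 against fry1-6, with both libraries below both for 10, where 24.3% of all genes had that order. A difference that misses the threshold at 2 libraries per genotype does not show that the levels were equal.

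The rise in fry1-6 can be set beside features of the members, which were split after the values were known and are given without a test. The 16 tested members of the block had a median log2 fold change of 1.77, all above 0, and the 13 others a median of 0.44, with 11 above 0. By site, the 11 members with a 3'D6(-) site had a median of 1.74, the 5 with a 3'D9(-) site 1.09, and the 8 with a 3'D12(-) site 0.80. Of the 15 with a 3'D6(-) or 3'D9(-) site, 7 were called, and of the 14 tested members with neither, 2 were (medians 1.74 and 0.60). The 20 members with a miR161 site had a median of 1.56 and held all 9 calls, and the 9 without one had a median of 0.70. The 17 members with a miR400 site had a median of 1.09 and 7 calls, and the 12 without one a median of 0.96 and 2 calls. In fry1-6 rdr6-11 these medians were 1.42 and 0.85, and in fry1-6 rdr1-1 they were 1.17 and 0.52. These features overlap, since 3'D6(-) sites lie mostly in block members and so do shared windows. The 11 members with a 150-base window found elsewhere had a median of 1.80 and 8 of the calls, and the 18 without had a median of 0.64 and 1 call, AT1G62860. Position, site and shared sequence cannot be told apart with these members.

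**Figure D4:**
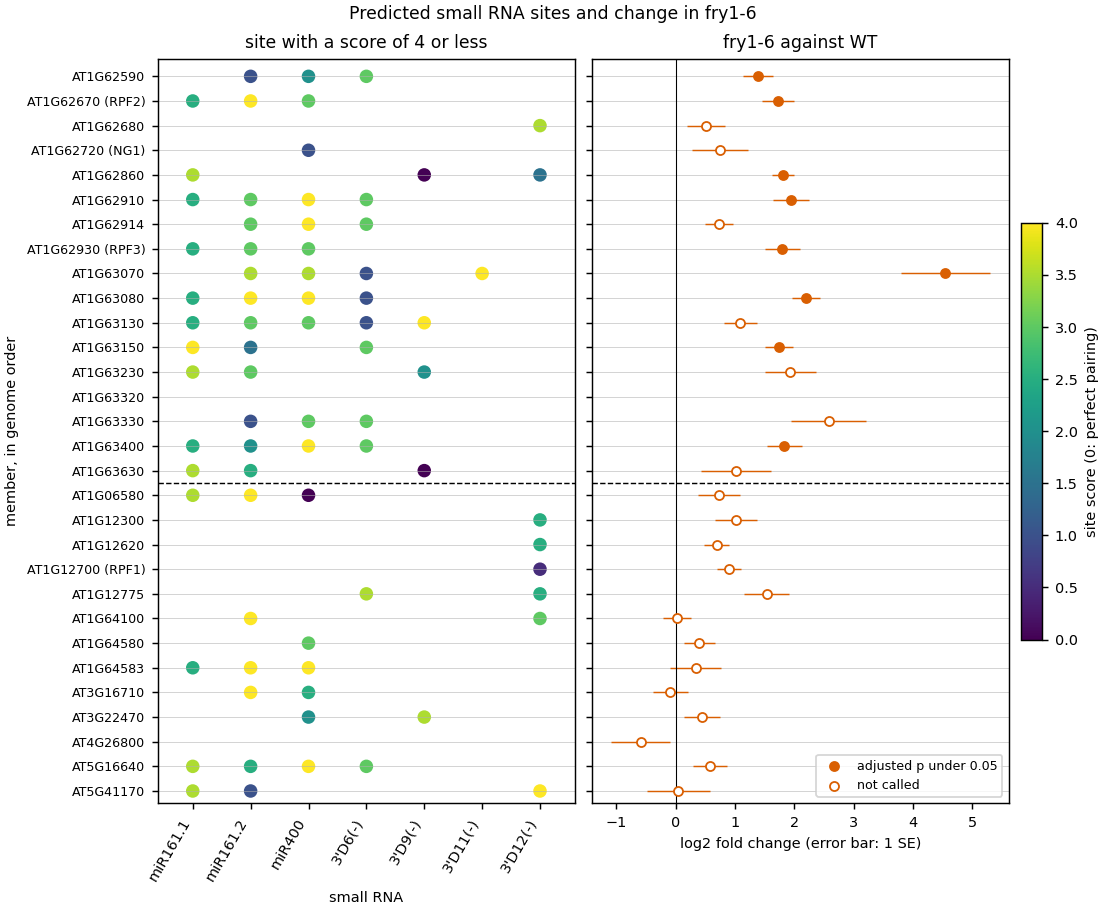
Left: predicted sites with a score of 4 or less for each small RNA (columns) in each member (rows, genome order, block above the dashed line), coloured by score, where 0 is perfect pairing. Right: log2 fold change of fry1-6 against WT with 1 SE, filled where the adjusted p was under 0.05. The 9 filled points are all above the dashed line and all have a miR161 site, and AT1G63320, which has no point on the right, and AT4G26800 have no site.

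Of 14 tested genes of the small RNA pathway, 0 were called in fry1-6 against WT and 0 in fry1-6 rdr1-1, where 5.03% and 5.90% of all genes were called higher, so 14 genes would hold few calls at the background share. In fry1-6 rdr6-11, where 10.9% were called higher, 1 was, DRB4, the partner of DCL4, at 8.36 CPM in WT and 14.0 CPM in fry1-6 rdr6-11 (adjusted p = 0.048). DRB4 was at a similar mean level in fry1-6 rdr1-1 (13.3 CPM), without a call, and at 8.05 CPM in fry1-6. The TAS2 precursor was at 5.72 and 14.9 CPM in the WT libraries, 10.2 and 12.0 in those of fry1-6, 11.0 and 26.7 in the double mutant with rdr6-11, and 8.57 and 21.9 in that with rdr1-1. Replicates 1 and 2 of the same genotype differed by more than the genotype means did in WT and both double mutants, and it was not called against WT (adjusted p = 0.96, 0.37 and 0.63). Of the 5 TAS transcripts tested, TAS3 alone was called, in both double mutants (2.31-fold and 2.01-fold against WT, adjusted p = 0.010 and 0.028). The precursor genes of miR161, miR400 and miR173 were not analysed here.

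Of 8 other targets of ta-siRNAs, 3 were called higher in fry1-6, all HTT genes, and 0 lower, where 5.03% of all genes were called higher and 0.387% lower. Both fry1-6 libraries were above both WT libraries for all 5 HTT genes and for no other gene of the list, where 23.3% of all genes had that order. AT4G29760 was at 0.0715 and 0.245 CPM in WT (1 and 4 counts) and at 4.74 and 4.87 CPM in fry1-6 (adjusted p = 0.0036). It reached the level of the filter in no WT library, so it was tested only because the mutants had reads. Its fitted fold change depends on the prior count and is not given. AT5G18065 was at 1.29 and 1.04 CPM in WT and at 9.36 and 12.7 CPM in fry1-6 (9.47-fold, adjusted p = 0.011), and AT5G18040 at 7.80 and 8.09 and at 33.4 and 33.5 CPM (4.21-fold, adjusted p = 0.037). HTT stands for heat-induced TAS1 target, a group known for thermotolerance. Against WT, 5 of the 8 were called higher in the double mutant with rdr6-11 and 3 in that with rdr1-1, and 0 lower, where 10.9% and 5.90% of all genes were called higher and 7.94% and 2.07% lower. No gene of this list was called between the mutants, and the TAS3 targets ARF2, ARF3 and ARF4 were called in no comparison.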

How the data were processed

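The authors sequenced 8 seedling RNA libraries, aligned the reads with STAR 2.6 and counted them per gene with featureCounts 1.6.4 on the Araport11 annotation, by the submitters' processing notes and the study's methods. The deposited values are raw counts for 37361 genes, with no normalization by the authors. STAR wrote 1 alignment for a read with several positions. The settings for strand, multi-mapped reads and overlapping genes are not given in the sources used here. Library totals were 15069329 to 26285519 counts, and a count of 0 allows up to 3 counts, or 0.114 to 0.199 CPM. Intervals and this floor cover counting error only.

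Genes were filtered with filterByExpr (minimum count 10, minimum total 15), scaled by TMM and fitted by the edgeR quasi-likelihood test with 4 genotypes over all 8 libraries (edgeR 4.0.16, limma 3.58.1, R 4.3.3), with p-values adjusted by Benjamini-Hochberg over 22744 genes. This leaves 4 residual degrees of freedom, and the biological coefficient of variation was 27.0%. DESeq2 1.42.0, other scalings and filters, a fit on the compared genotypes alone, a replicate block and fits without each library were alternatives. Replicates are biological by the series' design text, but nothing says whether they came from separate cultures or days, so p-values measure the spread between these libraries. On the log2 scale, the deviations of replicate 1 from its genotype mean correlated over genes at 0.668 between WT and fry1-6. In the other pairs of genotypes the values were -0.226 to 0.183, so the main fit did not pair libraries by number. Chloroplast-encoded genes took 0.161% and 0.173% of counts in replicate 1 of WT and fry1-6, and 0.0342% and 0.0509% in replicate 2. Whether same-numbered libraries of WT and fry1-6 belong together was not tested.

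Site search and sequence comparison used Python 3.11.15 on RefSeq's TAIR10.1 sequence and annotation; exon lengths of 29 of the 30 members equalled those in the tables. Per-library values are given for members that passed in any comparison, the 5 highest per kilobase, AT1G62914, and members with an RPF or RFL symbol. The members and gene lists were chosen with earlier results of these data known. Growth conditions and library kit differ between the labels and the study's methods, and the labels were followed.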

Additional observations from a re-analysis of the deposited data

How the results depend on the processing

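No called value changed direction under any alternative. Fitted on the compared genotypes alone, the members called against WT were 0 for fry1-6, 8 for fry1-6 rdr6-11 and 0 for fry1-6 rdr1-1. Over all genes, 0, 1028 and 76 were called higher and 0, 800 and 3 lower, in the same order. DESeq2 called 14 in fry1-6, and between mutants 2 in fry1-6 rdr6-11 and 1 in fry1-6 rdr1-1 against fry1-6, where total-count scaling called 1 in fry1-6 rdr6-11. Leaving out 1 library at a time gave 3 to 11, 3 to 18 and 1 to 10 calls against WT, in the same order of mutants, with medians of 0.85 to 1.05, 1.18 to 1.63 and 0.76 to 1.24 on the log2 scale. Between mutants it gave 0 to 1 calls in fry1-6 rdr6-11 and 0 in fry1-6 rdr1-1 against fry1-6, with medians of -0.05 to 0.22 and -0.27 to -0.15, and 0 calls between the double mutants, with medians of 0.21 to 0.46. A fit that leaves 1 library in a genotype assumes that it varies like the others. Over the other settings the medians were 0.95 to 1.15, 1.15 to 1.67 and 0.82 to 1.04 against WT, 0.14 to 0.44 and -0.29 to -0.21 against fry1-6, and 0.30 to 0.66 between the double mutants. Total-count scaling moved the median of all genes by up to 0.37 on the log2 scale, in fry1-6 rdr6-11 against WT. Of the values of called members, 286 kept their call and 43 lost it over the other settings, and 187 kept and 109 lost it when a library was left out. The cause was not tested.

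With the replicate block the calls were 10, 15 and 8 against WT and 0 in each comparison between mutants. Crossing the numbers of the double mutants, a choice made after seeing the data, gave 10, 19 and 13 calls against WT and 0 between mutants. AT1G63320, with 1 count, was left out by the filter on low counts. Without that filter it was not called in any comparison, and DESeq2 gave it no adjusted p.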
